A study of Leucoraja erinaceus with 6 samples.

Results

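The actin filaments, myosins, microtubule motors and associated proteins of the cytoskeleton were examined in hand-picked spinal cord cells of little skate (Leucoraja erinaceus) embryos. Members were the 45 of 7080 rows whose protein description contained, at a word start, actin, actinin, cofilin, profilin, tropomyosin, transgelin, thymosin, myosin, kinesin, dynein, dynactin, stathmin, microtubule, septin, capping protein or spectrin. Rows beginning with tubulin and rows of kinases were left out, and the rule used words only, although earlier results of these data were known when it was set. The rule also takes 4 rows described as SWI/SNF-related chromatin regulators, because their descriptions hold the phrase actin dependent, and these are described last. No row was described as a profilin, a dynactin subunit by that word, or a myosin heavy chain of muscle, and such genes were not analysed here.

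The pectoral group held 3 libraries (replicates 1, 2 and 3) of motor neurons that innervate the pectoral fin, and the tail group held 3 libraries (replicates 1, 2 and 4) of tail spinal cord cells. All came from wild type embryos at stages 30 to 31, and the cells had been picked by hand. Cell class and axial level both differ between the groups and cannot be told apart, and the labels do not say how many embryos went into a library. Replicate libraries may thus differ for technical reasons alone, and the p-values below reflect only spread among the 6 libraries. In limma, the spread of each row is drawn towards a trend fitted over all tested rows. Its p-values and intervals are therefore not set by the libraries of that row alone.

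Expression is given in TPM, a transcript abundance corrected for length and for library size, so that levels of different rows can be set side by side. The deposited rows summed to 50000 to 63021 TPM in pectoral motor neurons and 48449 to 74224 TPM in tail cord cells, and the read depth behind them is unknown. Tail replicate 4 had 3552 of its 7080 rows listed at 0 TPM, and pectoral replicate 1 had 5. Of 5 motor neuron marker rows, ISL1, ISL2, and NGFR lay higher in every pectoral than in every tail library. The transporter of acetylcholine into vesicles and choline acetyltransferase overlapped. The ISL2 row was too low to test. ISL1 stood at 1.63, 1.22 and 4.81 TPM in pectoral motor neurons and 0.249, 0.0563 and 0 TPM in tail cord cells. Neither ISL1 (limma adjusted p = 0.625) nor NGFR (limma adjusted p = 0.487) was called. Rows were tested at 1 TPM or more in 3 libraries or more. ISL1 and NGFR reached this in the pectoral group alone, so their separation followed from that filter. Of all tested rows 11.8% were separated. The NGFR row, at 5.16, 7.58 and 8.96 TPM in pectoral motor neurons, shares its Trinity gene with a contig described as cugbp, Elav-like family member 5a. Its match is thus uncertain. The summed level of the 5 rows was 15.6 to 17.7 TPM in pectoral motor neurons and 2.91 to 5.96 TPM in tail cord cells. The 8 progenitor and glia rows also summed higher, at 80.8 to 117 TPM in pectoral motor neurons and 22.7 to 60.7 TPM in tail cord cells. Row by row they were mixed, since 3 of the 6 tested rows had positive and 3 negative log2 fold changes (pectoral minus tail, median -0.12). The positive rows were inhibitor of DNA binding 4 (2.86), fatty acid binding protein 7a (1.23) and inhibitor of DNA binding 2a (0.39). Inhibitor of DNA binding 4 was higher in every pectoral than in every tail library, and the other positive rows overlapped. The negative rows were SOX9a (-1.68), SOX2 (-1.41) and PAX6a (-0.64), each with overlapping groups. Of the rows too low to test, fatty acid binding protein 7b was higher in every pectoral library and SOX9b overlapped. The 3 neuron rows summed to 19.6 to 52.8 TPM in pectoral motor neurons and 4.61 to 47.0 TPM in tail cord cells. The part of these cells in the values below was not tested. In such bulk samples, fewer cells of a type and less RNA per cell cannot be told apart.

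Actin is built from monomers into polar filaments, and the balance of free and filamentous actin is set by proteins that bind monomers, sever filaments, start new branches or cap filament ends. In a growing axon these filaments fill the growth cone, while microtubules run along the shaft and serve as tracks for kinesins, which mostly move cargo outward, and for cytoplasmic dynein, which moves it back to the cell body. Myosins pull on actin, tropomyosins run along it, and septins form filaments and scaffolds of their own.

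No tested cytoskeleton row was called as differing between pectoral fin motor neurons and tail spinal cord cells, and few rows of any kind were. Of the 45 rows, 32 stood at 1 TPM or more in 3 libraries or more and were tested, and 0 of these were called by limma at a Benjamini-Hochberg adjusted p under 0.05 over all 3752 rows tested (smallest adjusted p 0.778), where 0.08% of all rows were called. Of the 936 tested rows with a description, 0 were called, so a count of 0 is not particular to the members. At an unadjusted limma p under 0.05 there were also 0 members in this fit, against 7.04% of all tested rows. The authors' deposited table gave a p-value under 0.05 to 0 of the 45 members, against 3.09% of its rows, and the smallest member value was 0.152. Complete separation of the groups, with all 3 libraries of one above all 3 of the other, was seen in 0 of the 32 tested members and in 11.8% of all tested rows. Of all tested rows, 126 reached 1 TPM in 1 group only, against 0 of the tested members. The filter by itself separates such rows, so the share of 11.8% is partly set by the filter. The log2 fold changes, differences of mean log2(TPM + 1) of pectoral minus tail, were positive in 21 members and negative in 11, and ran from -2.08 to 1.12.

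The median member fold change was 0.21, beside -0.18 over all tested rows. Without tail replicate 4 the member median was -0.24 and the median of all rows -0.44, so the sign of the member median rested on that library. The intervals were wide. All 32 of the 95% intervals included 0, and 31 reached past a log2 fold change of 1 in at least 1 direction. Changes of that size were thus not excluded for those 31 rows. Over the 6 fits that each left out 1 library, 19 of the 32 fold changes kept their sign and 13 turned in at least 1 fit. In all, 31 turned or moved by over 1.5 times, dynlt3 being the exception, and the smallest adjusted p was 0.209. Levels of the rows, in contrast, spanned a wide range within every library.

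Cytoskeleton rows held 1105, 1447 and 1758 TPM in pectoral motor neurons and 2200, 1531 and 628 TPM in tail cord cells. That was 2.21% to 2.79% of the deposited TPM in pectoral motor neurons and 1.30% to 2.96% in tail cord cells. Tail replicate 1 was the highest and tail replicate 4 the lowest, with the pectoral libraries between them. A single row, beta-actin 2, made up 68.8%, 78.0% and 81.1% of the members' sum in pectoral motor neurons and 80.2%, 73.4% and 76.3% in tail cord cells.

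Detection of the members followed detection of all rows in each library. In pectoral replicates 1, 2 and 3, 37, 23 and 22 of the 45 members stood at 1 TPM or more, and in tail replicates 1, 2 and 4 there were 35, 26 and 16. Among all rows the shares at 1 TPM or more were 75.8%, 39.3% and 38.1% in pectoral motor neurons and 60.2%, 44.1% and 27.3% in tail cord cells. Tail replicate 4 listed 21 of the 45 members at 0, and pectoral replicate 1 listed 0 of them there. Of the members, 17 were above 0 in all 6 libraries, or 37.8%, against 32.8% of all rows.

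**Figure D1:**
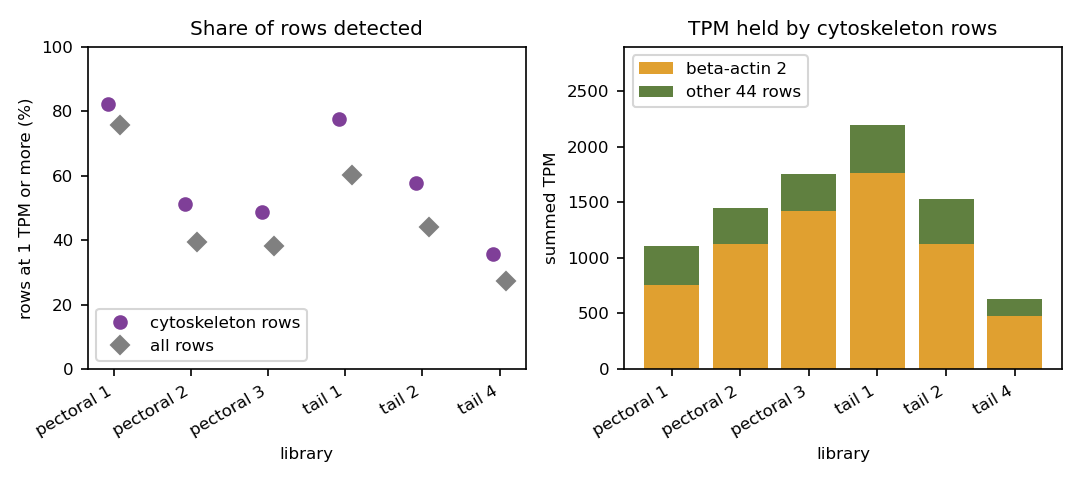
Left, the share of rows at 1 TPM or more in each library (percent), for the 45 cytoskeleton rows (circles) and all 7080 rows (diamonds). Right, the summed TPM of the 45 rows in each library, split into beta-actin 2 and the other 44 rows. Tail replicate 4 is lowest in both panels, at 35.6% of members and 628 TPM, and beta-actin 2 is the larger part of the sum in every library.

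**Figure D2:**
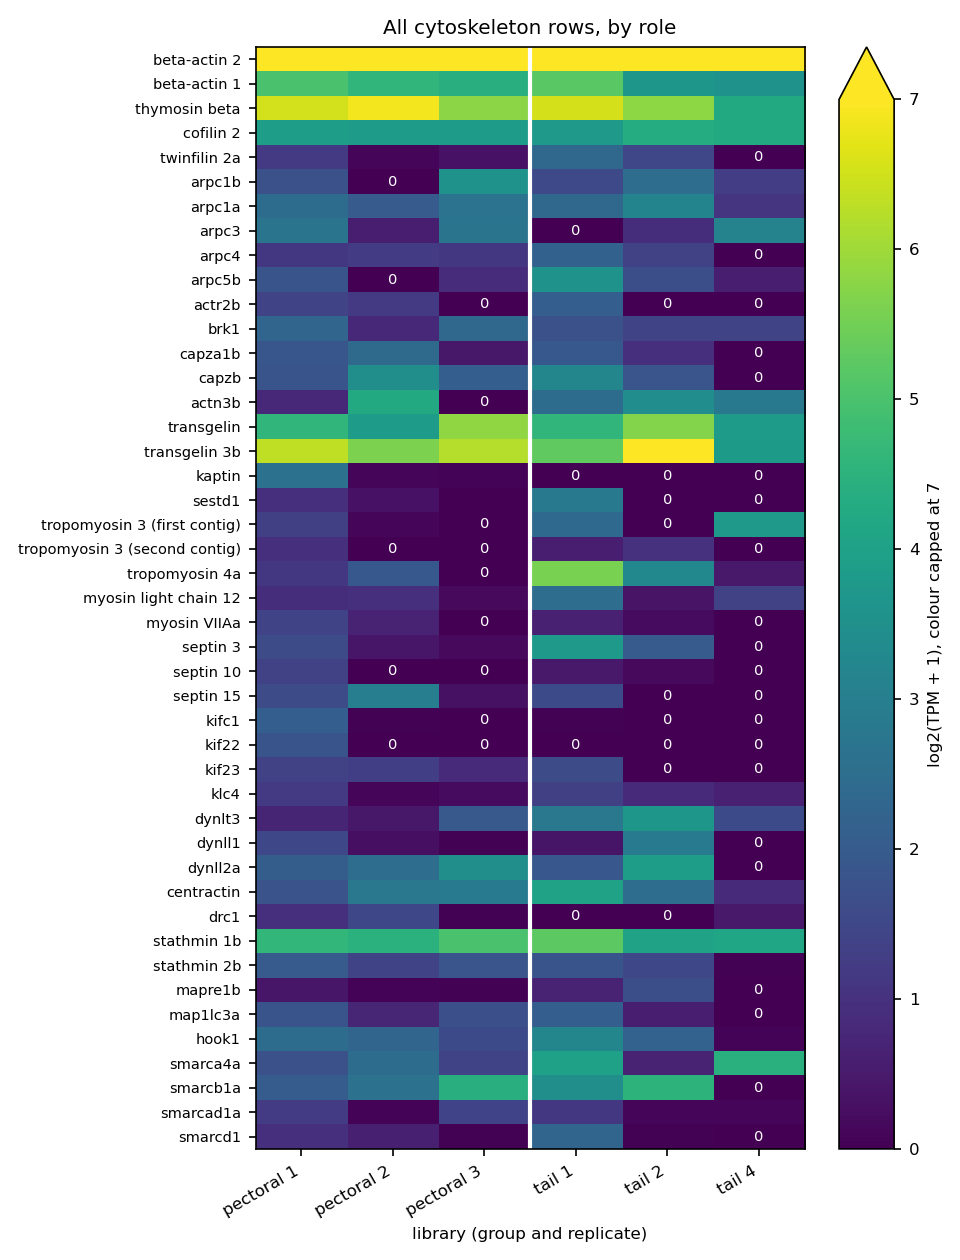
Levels of all 45 rows in each library as log2(TPM + 1), with colours capped at 7. Pectoral libraries lie to the left and tail libraries to the right of the white line. Rows are ordered by class, a fine division by role. A white 0 marks a value listed at 0, of which tail replicate 4 has 21 and pectoral replicate 1 none.

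Actin itself was represented by both cytoplasmic beta-actin rows, the monomers from which filaments are made. Beta-actin 2 (contig TRINITY_DN18275_c0_g6_i2) stood at 760.2, 1128 and 1426 TPM in pectoral motor neurons and at 1764, 1124 and 479 TPM in tail cord cells. It ranked 5 in mean TPM among all 7080 rows, with both the highest and the lowest library in the tail group. The means were 1105 ± 334 TPM in pectoral motor neurons and 1122 ± 642 TPM in tail cord cells (SD, n = 3 each), and the log2 fold change was 0.12 (95% interval -0.75 to 0.99, limma adjusted p = 0.979). Of the tested members it had the narrowest interval. The width of a limma interval rests in large part on the variance trend over all tested rows. It is thus no measure of how steady this row was across its own libraries.

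Beta-actin 1 (contig TRINITY_DN18275_c0_g12_i1) was far lower, at 30.95, 23.4 and 20.1 TPM in pectoral motor neurons and 35.8, 12.01 and 10.9 TPM in tail cord cells. Its pectoral values lay inside the range of the tail values. The level of beta-actin 2 over that of beta-actin 1 was 24.6, 48.3 and 70.8 in pectoral motor neurons and 49.3, 93.6 and 43.9 in tail cord cells, again with overlap. Both contigs belong to 1 Trinity component, a cluster of contigs that share sequence, and actin paralogs are nearly identical, so the division of reads between the rows is uncertain.

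Proteins that hold or recycle actin monomers included the row ranked 2 in mean level among the members. Thymosin beta, which sequesters free monomers, stood at 90.7, 117 and 54.4 TPM in pectoral motor neurons and at 92.2, 55.4 and 18.1 TPM in tail cord cells. Its log2 fold change was 0.86 (95% interval -0.62 to 2.33, limma adjusted p = 0.873), and tail replicate 1 lay above pectoral replicates 1 and 3. Of the 7 members with the highest means it was the one with the largest fold change, and the groups still overlapped.

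Cofilin 2, which severs and disassembles filaments and is described as the muscle form, was the steadiest row. Its levels were 14.1, 13.3 and 13.5 TPM in pectoral motor neurons and 12.6, 18.98 and 17.9 TPM in tail cord cells. The highest library was 1.51 times the lowest. Among the 384 rows with a mean of at least 10 TPM and no 0 in any library, cofilin 2 had the smallest such ratio, rank 1, where the median ratio was 12.2. This feature was picked out after its values were seen. Means were 13.6 ± 0.416 TPM in pectoral motor neurons and 16.5 ± 3.42 TPM in tail cord cells (SD, n = 3 each), with a log2 fold change of -0.24 (95% interval -1.96 to 1.48, limma adjusted p = 0.979). Twinfilin 2a, which binds monomers and filament ends, was low, at 1.297, 0.0616 and 0.277 TPM against 4.04, 1.802 and 0 TPM.

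**Figure D3:**
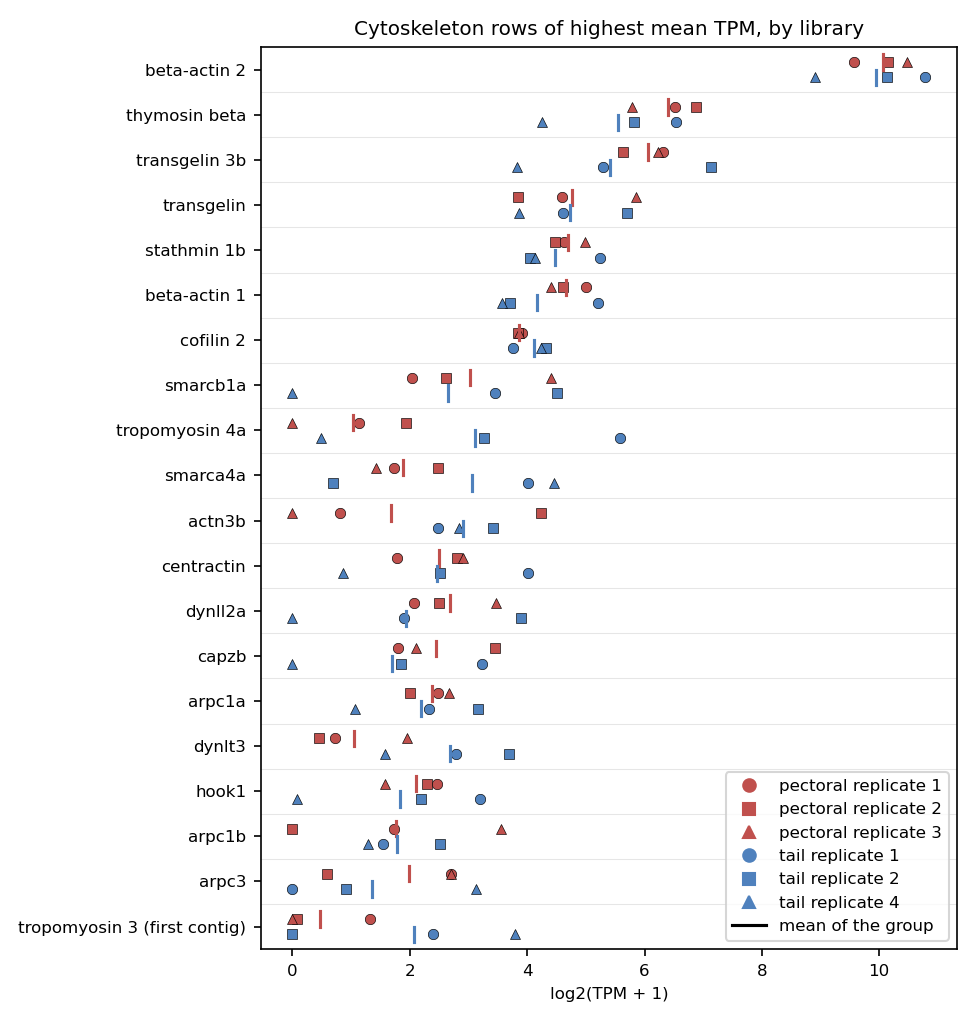
Levels as log2(TPM + 1) of the 20 tested rows with the highest mean TPM, 1 point for each library, pectoral above tail in each row, with short lines at the group means of the log2 values. Every row shows overlap of the groups, and cofilin 2 shows the tightest cluster of points.

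New actin branches are started by the Arp2/3 complex, for which 6 subunit rows were present, and all 6 were tested. Summed over these rows, the complex stood at 17.8, 6.11 and 23.8 TPM in pectoral motor neurons and 23.7, 17.4 and 10.8 TPM in tail cord cells, without separation. The arpc1a subunit had no 0 in any library, at 4.59, 3.01 and 5.39 TPM in pectoral motor neurons and 4.01, 7.998 and 1.096 TPM in tail cord cells (log2 fold change 0.20, 95% interval -1.83 to 2.22, limma adjusted p = 0.984). Its paralog arpc1b varied more, at 2.34, 0 and 10.8 TPM against 1.91, 4.69 and 1.43 TPM. In 4 libraries arpc1a was the higher of this pair, and in pectoral replicate 3 and tail replicate 4 it was arpc1b.

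The remaining subunits were low. The arpc3 row stood at 5.496, 0.501 and 5.49 TPM in pectoral motor neurons and 0, 0.888 and 7.76 TPM in tail cord cells, with its highest value in tail replicate 4 and a 0 in tail replicate 1. The arpc5b row was highest in tail replicate 1, at 2.51, 0 and 0.868 TPM against 11.1, 2.23 and 0.506 TPM. For arpc4, a core subunit, the pectoral values were close together at 1.18, 1.32 and 1.21 TPM, and the tail values were 3.48, 1.58 and 0 TPM. The actin-related subunit actr2b was listed at 0 in 3 libraries, at 1.71, 1.28 and 0 TPM against 3.26, 0 and 0 TPM. The brk1 row, a small subunit of the WAVE complex that activates Arp2/3, stood at 3.83, 0.729 and 4.08 TPM in pectoral motor neurons and 2.31, 1.68 and 1.701 TPM in tail cord cells. The 7 nucleation rows were positive in 4 and negative in 3 cases, with 0 called.

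Capping protein closes the fast-growing end of a filament and works as a dimer of an alpha and a beta chain. The beta chain row capzb stood at 2.498, 9.94 and 3.301 TPM in pectoral motor neurons and 8.34, 2.62 and 0 TPM in tail cord cells. The alpha chain row capza1b stood at 2.66, 4.39 and 0.359 TPM against 2.804, 0.959 and 0 TPM. Both chains were highest in the same pectoral library, replicate 2, and both were listed at 0 in tail replicate 4. Their log2 fold changes of 0.76 and 0.61 were smaller than their standard errors of 1.05 and 0.93 (limma adjusted p = 0.908 and 0.914).

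Proteins that bind along filaments included 2 of the 4 members of highest mean level. Transgelin 3b, the neuronal form of a small actin-binding family, stood at 78.7, 48.4 and 73.8 TPM in pectoral motor neurons and 38.2, 139 and 13.1 TPM in tail cord cells. Tail replicate 2 was the highest and tail replicate 4 the lowest of all 6. Its relative transgelin, best known from smooth muscle, stood at 23.2, 13.4 and 56.5 TPM in pectoral motor neurons and 23.5, 51.3 and 13.5 TPM in tail cord cells. The log2 fold changes were 0.64 (95% interval -0.94 to 2.22, limma adjusted p = 0.9) for transgelin 3b and 0.04 (95% interval -1.65 to 1.72, limma adjusted p = 0.998) for transgelin. With 1 library left out, transgelin 3b lay between -0.15 (tail replicate 4 omitted) and 1.499 (tail replicate 2 omitted) and transgelin between -0.51 (pectoral replicate 3 omitted) and 0.53 (tail replicate 2 omitted). Their contigs belong to 1 Trinity component, so reads may be divided between them.

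The row actn3b, an alpha-actinin that cross-links filaments in the Z-disc of fast muscle, varied widely within the pectoral group. It stood at 0.759, 17.9 and 0 TPM in pectoral motor neurons and at 4.59, 9.71 and 6.14 TPM in tail cord cells. Pectoral replicate 2 alone exceeded every tail library, and the other pectoral libraries lay below all of them. The log2 fold change was -1.23 (95% interval -3.42 to 0.97, limma adjusted p = 0.888), and with 1 library left out it lay between -2.51 (pectoral replicate 2 omitted) and -0.38 (pectoral replicate 3 omitted). The rows of kaptin, an actin-binding protein, and sestd1, with spectrin-type repeats, were too low to test. Kaptin stood at 5.28, 0.0773 and 0.0431 TPM in pectoral motor neurons with every tail cord library listed at 0, so its groups did not overlap, but its level rested on pectoral replicate 1.

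Tropomyosins, which stabilise filaments and control access of myosin, included the member with the lowest fold change. Tropomyosin 4a stood at 1.202, 2.83 and 0 TPM in pectoral motor neurons and at 46.8, 8.58 and 0.397 TPM in tail cord cells. Tail replicates 1 and 2 were above all pectoral libraries, and tail replicate 4 was below pectoral replicates 1 and 2. The log2 fold change was -2.08 (95% interval -4.38 to 0.22, limma adjusted p = 0.778). With 1 library left out it lay between -3.39 (tail replicate 4 omitted) and -0.84 (tail replicate 1 omitted), with limma adjusted p of 0.209 and 0.877 in these fits.

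Tropomyosin 3 had 2 rows, both contigs of 1 Trinity gene. The first stood at 1.504, 0.0599 and 0 TPM in pectoral motor neurons and 4.29, 0 and 12.8 TPM in tail cord cells, with a log2 fold change of -1.59 (95% interval -3.59 to 0.40, limma adjusted p = 0.837). It lay between -2.63 (tail replicate 2 omitted) and -0.73 (tail replicate 4 omitted) when single libraries were left out. The second was too low to test, at 0.915, 0 and 0 TPM against 0.504, 1.01 and 0 TPM. The high tail library differed between the tropomyosins, since tail replicate 1 led for tropomyosin 4a and tail replicate 4 for the first tropomyosin 3 row. Both myosin rows were too low to test. Myosin light chain 12, a regulatory chain that controls non-muscle myosin II, stood at 0.886, 0.918 and 0.134 TPM in pectoral motor neurons and 4.71, 0.296 and 1.57 TPM in tail cord cells. Myosin VIIAa, an unconventional myosin known from hair cells, reached 1.703, 0.618 and 0 TPM against 0.5599, 0.147 and 0 TPM.

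Few rows of the muscle lists were found. The 1 skeletal muscle row kept from the marker list, a sarcomeric mitochondrial creatine kinase, stood at 2.43, 3.71 and 1.83 TPM in pectoral motor neurons and 6.12, 0 and 0 TPM in tail cord cells. With the 3 left-out matches, among them the brain and another mitochondrial creatine kinase, the list summed to 5.90 to 27.5 TPM in pectoral motor neurons and 10.3 to 44.5 TPM in tail cord cells. No described row carried troponin, titin, desmin, nebulin or myogenin. Only 1576 of the 7080 rows had a description, and how rows were chosen is not stated, so a missing row does not show that the gene was silent. The 2 calponin 3 rows of the smooth muscle list summed to 9.51 to 23.0 TPM in pectoral motor neurons and 9.72 to 44.03 TPM in tail cord cells. The 1 connective tissue row, a type II collagen, stood at 2.22, 69.0 and 4.49 TPM in pectoral motor neurons and 4.91, 0.109 and 0 TPM in tail cord cells. It was highest in pectoral replicate 2, the library in which actn3b was also highest. The sarcomeric creatine kinase and the 2 calponin 3 rows were instead highest in tail replicate 1. The part of other cell types in these values was not tested.

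Of the septins, septin 3 is mainly neuronal and is found at presynaptic terminals in mammals. It stood at 2.12, 0.344 and 0.126 TPM in pectoral motor neurons and at 12.8, 3.04 and 0 TPM in tail cord cells, with a log2 fold change of -1.19 (95% interval -3.25 to 0.87, limma adjusted p = 0.873). With 1 library left out it lay between -2.15 (tail replicate 4 omitted) and -0.26 (tail replicate 1 omitted). Septin 15 ran the other way, at 2.01, 7.01 and 0.247 TPM in pectoral motor neurons and 1.96, 0 and 0 TPM in tail cord cells (log2 fold change 1.12, 95% interval -0.61 to 2.84, limma adjusted p = 0.868), the highest fold change of any tested member. It lay between 0.43 (pectoral replicate 2 omitted) and 1.77 (pectoral replicate 3 omitted) when single libraries were left out. Septin 10 was above 1 TPM in pectoral replicate 1 and in no other library, at 1.63, 0 and 0 TPM against 0.403, 0.129 and 0 TPM. Each septin was listed at 0 in tail replicate 4.

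Kinesins were among the lowest members, at ranks 34 to 43 of 45 in mean level. All 4 kinesin rows reached 1 TPM in pectoral replicate 1, and 1 of the 4 was tested. That row was kif23, a kinesin of the central spindle in dividing cells, at 1.54, 1.48 and 0.793 TPM in pectoral motor neurons and 2.09, 0 and 0 TPM in tail cord cells (log2 fold change 0.62, 95% interval -0.73 to 1.98, limma adjusted p = 0.894). The mitotic kinesins kifc1 and kif22 stood at 3.25, 0.0379 and 0 TPM and at 2.53, 0 and 0 TPM in pectoral motor neurons, and no tail library exceeded 0.0382 TPM for either of them. Their levels thus came from pectoral replicate 1, which also had the fewest rows at 0 of any library. The cargo-binding kinesin light chain klc4 stood at 1.26, 0.0992 and 0.164 TPM against 1.51, 0.814 and 0.548 TPM. No row named the heavy chain of conventional kinesin.

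The dynein rows were light chains and a regulator. The row dynlt3, a Tctex-type light chain of cytoplasmic dynein, stood at 0.652, 0.368 and 2.89 TPM in pectoral motor neurons and at 5.92, 11.99 and 1.997 TPM in tail cord cells. Overlap rested on pectoral replicate 3, which lay above tail replicate 4. Its log2 fold change was -1.65 (95% interval -3.74 to 0.45, limma adjusted p = 0.842), and in the authors' deposited table its p-value of 0.152 was the smallest among the members. The LC8-type light chain dynll2a stood at 3.22, 4.66 and 10.01 TPM in pectoral motor neurons and 2.74, 13.8 and 0 TPM in tail cord cells, with a log2 fold change of 0.75 (95% interval -1.40 to 2.90, limma adjusted p = 0.908). Its paralog dynll1 was too low to test, at 1.86, 0.211 and 0.0315 TPM against 0.326, 6.24 and 0 TPM, and was highest in the same library, tail replicate 2.

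Centractin, the actin-related protein that forms the short filament of dynactin, stood at 2.44, 5.95 and 6.53 TPM in pectoral motor neurons and 15.2, 4.71 and 0.822 TPM in tail cord cells (log2 fold change 0.03, 95% interval -2.04 to 2.10, limma adjusted p = 0.998). The row drc1, a subunit of the dynein regulatory complex of motile cilia, was too low to test, at 0.919, 1.88 and 0.02704 TPM in pectoral motor neurons and 0, 0 and 0.385 TPM in tail cord cells. The dynein class as a whole ran in both directions, with 2 positive and 1 negative fold change among 3 tested rows.

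Stathmins bind tubulin dimers and promote microtubule turnover. Stathmin 1b (contig TRINITY_DN17298_c0_g1_i1) ranked 5 in mean level among the members, at 23.8, 21.1 and 30.6 TPM in pectoral motor neurons and 36.97, 15.5 and 16.6 TPM in tail cord cells. Its highest library was 2.39 times its lowest, which ranked 14 from the smallest among the same 384 rows. The means were 25.2 ± 4.899 TPM in pectoral motor neurons and 23.02 ± 12.1 TPM in tail cord cells (SD, n = 3 each), and the log2 fold change was 0.22 (95% interval -1.42 to 1.86, limma adjusted p = 0.979). Stathmin 2b, of the neuronal stathmin type that marks growing axons, was lower, at 3.05, 1.71 and 2.601 TPM against 2.55, 1.86 and 0.0311 TPM. Its low tail value came from replicate 4, and the other 5 libraries lay between 1.71 and 3.05 TPM.

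Other microtubule-binding rows were low. The adaptor hook1, which links cargo to dynein, stood at 4.55, 3.89 and 1.98 TPM in pectoral motor neurons and 8.21, 3.57 and 0.0559 TPM in tail cord cells. The autophagy protein map1lc3a, first found as a light chain of a microtubule-associated protein, stood at 2.55, 0.692 and 2.28 TPM against 3.24, 0.507 and 0 TPM. The plus-end tracking protein mapre1b was too low to test, at 0.353, 0.0478 and 0.0271 TPM against 0.601, 2.19 and 0 TPM. All 4 tested rows of the microtubule class had positive log2 fold changes, from 0.22 to 0.64, each smaller than its standard error and with overlapping groups. With 1 library left out, hook1 lay between -0.59 (tail replicate 4 omitted) and 0.98 (tail replicate 1 omitted), stathmin 2b between 0.10 (tail replicate 4 omitted) and 0.99 (tail replicate 1 omitted) and map1lc3a between 0.09 (tail replicate 4 omitted) and 1.14 (tail replicate 1 omitted). The lowest value of each of the 3 rows was in tail replicate 4.

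**Figure D4:**
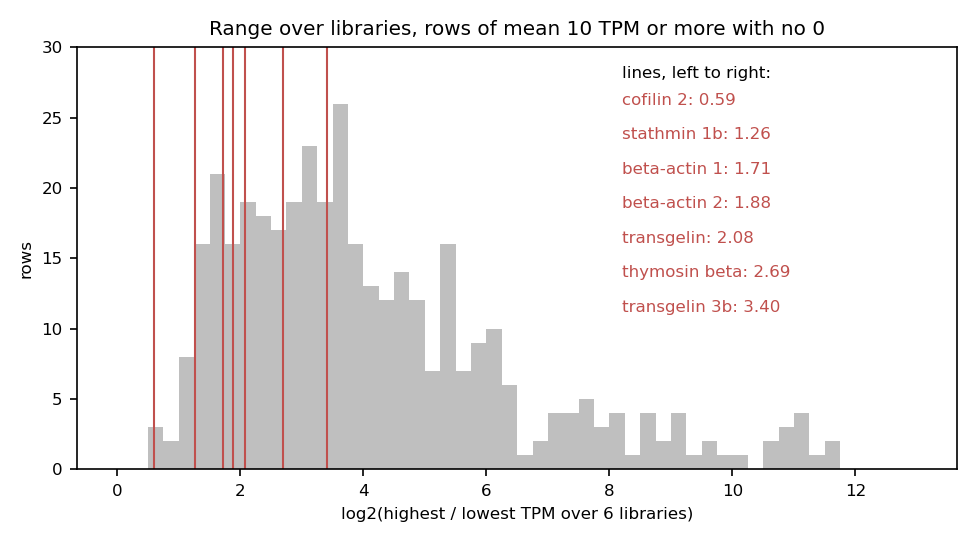
Histogram of log2 of the highest over the lowest TPM across the 6 libraries, for the 384 rows with a mean of at least 10 TPM and no 0, with lines at the 7 cytoskeleton rows among them. Cofilin 2 is leftmost at 0.59 and stathmin 1b next at 1.26, while transgelin 3b lies at 3.40.

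The most abundant members differed widely in how steady they were. For the 7 members with a mean of at least 10 TPM and no 0, the median ratio of the highest to the lowest library was 3.68, beside 12.2 over all 384 such rows. This is a description without a test, and these rows are not matched in level to the members. Transgelin 3b, with a ratio of 10.6, ranked 173 of the 384, and smarcb1a, also above a mean of 10 TPM, has no ratio because of a 0. Of the 8 members with a mean of at least 10 TPM, 0 had separated groups, beside 80 of the 457 tested rows at that level. Tail replicate 1 held the highest value more often than any other library. It was highest for 13 of the 32 tested members (40.6%) and for 35.2% of all tested rows.

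The 4 SWI/SNF-related rows encode chromatin remodelling proteins and are no part of the cytoskeleton in the usual sense, and each had overlapping groups. The ATPase subunit smarca4a stood at 2.301, 4.57 and 1.69 TPM in pectoral motor neurons and 15.2, 0.619 and 20.96 TPM in tail cord cells, with a log2 fold change of -1.18 (95% interval -3.32 to 0.96, limma adjusted p = 0.892). The core subunit smarcb1a stood at 3.11, 5.12 and 20.2 TPM against 9.92, 21.9 and 0 TPM. The high tail libraries of smarca4a were replicates 1 and 4, while smarcb1a was listed at 0 in replicate 4. The rows smarcad1a and smarcd1 stayed under 4 TPM in every library. Without these 4 rows, 29 of 41 members were tested, 0 were called and the median log2 fold change was 0.20.

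**Figure D5:**
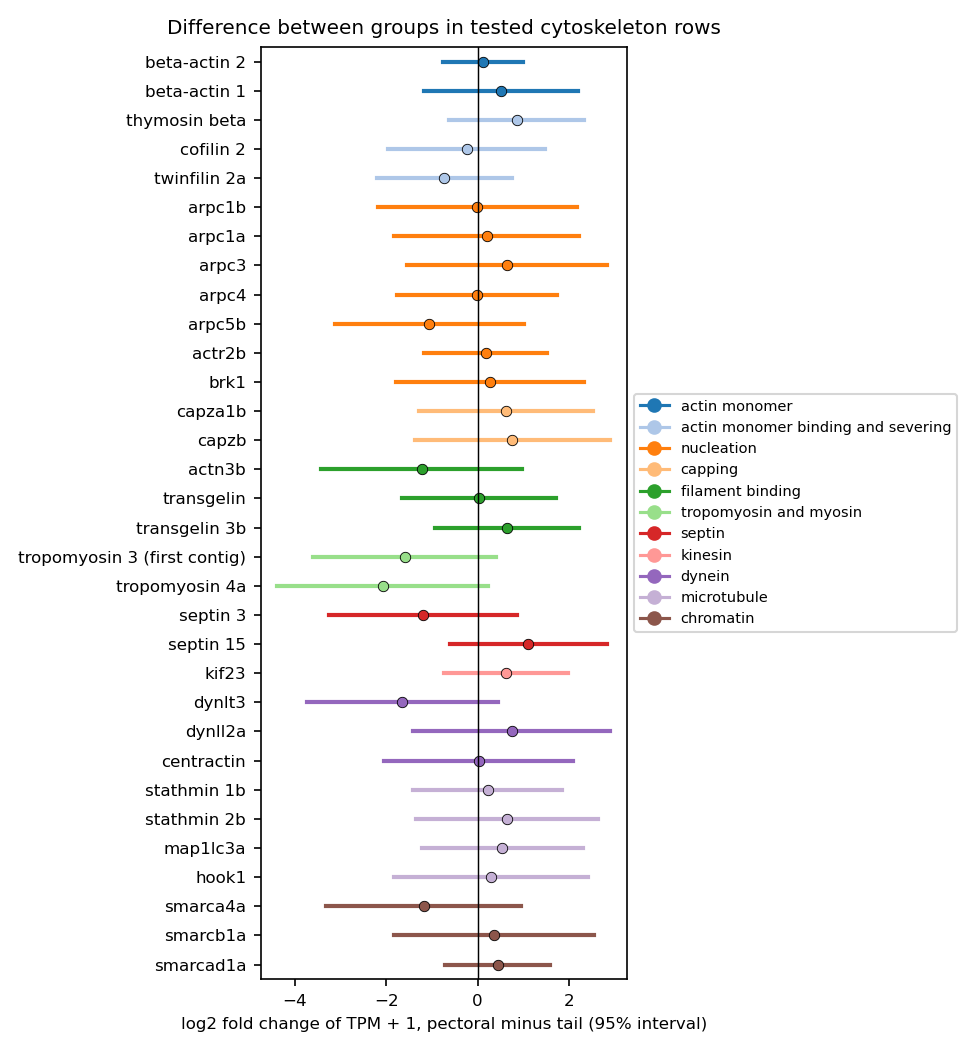
The log2 fold change of TPM + 1, pectoral minus tail, for the 32 tested rows (points) with 95% intervals from limma (lines). Colours mark the classes, a fine division by role. All intervals include 0, with tropomyosin 4a at -2.08 lowest and septin 15 at 1.12 highest.

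Genes that act on the same structures but lack the members' words were compared by list. Of 6 actin regulator rows tested, 0 were called, 2 had positive and 4 negative fold changes, and the median was -0.20. The row of adducin 1, which joins spectrin to actin filament ends, stood at 3.77, 2.95 and 9.71 TPM in pectoral motor neurons. In tail cord cells it stood at 0.0696, 0 and 0 TPM. It was the 1 of the 6 with separated groups, beside 11.8% of all tested rows. Adducin 1 reached 1 TPM in the pectoral group alone, so the filter by itself made its groups separate. It was singled out after its values were seen, and its log2 fold change was 2.52 (SE 0.91, limma adjusted p = 0.54). By mean level the list was led by alpha-catenin, WAS protein family homolog 1 and moesin a, each with overlapping groups. Moesin a, which ties actin to the membrane, had means of 1.89 ± 0.936 TPM in pectoral motor neurons and 4.24 ± 2.87 TPM in tail cord cells (SD, n = 3 each).

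Of 7 tested microtubule regulator rows 0 were called, 3 had positive and 4 negative fold changes, and the median was -0.25. The nudC row, a dynein-associated nuclear distribution protein, was singled out after its values were seen. Its means were 4.29 ± 2.49 TPM in pectoral motor neurons and 13.9 ± 4.28 TPM in tail cord cells (SD, n = 3 each). Its log2 fold change was -1.57 (limma adjusted p = 0.84). It was the 1 of the 7 with separated groups, beside 11.8% of all tested rows. Catalytic subunit 2 of platelet-activating factor acetylhydrolase 1b, too low to test, separated the other way. It stood at 4.77, 0.190 and 1.52 TPM in pectoral motor neurons and was listed at 0 in every tail library. By mean level the list was led by the semaphorin response proteins dihydropyrimidinase-like 5b and 3 and regulatory subunit 1a of platelet-activating factor acetylhydrolase 1b, all with overlapping groups. Dihydropyrimidinase-like 3 stood at 1.68, 2.16 and 52.5 TPM in pectoral motor neurons and 7.23, 7.91 and 1.30 TPM in tail cord cells. Lamin B2, the 1 intermediate filament row tested, also overlapped.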

How the data were processed

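RNA of hand-picked cells was isolated by a kit meant for small inputs, and stranded mRNA was sequenced, as the labels' protocols state. The authors deposited TPM for each contig of a Trinity assembly and library, and a p-value for each row, per the file headers. Software in the submitters' processing notes was Trimmomatic 0.33, Salmon 0.8.2 and edgeR 3.18.1, with no roles stated, and no genome build is given. Of 7081 deposited rows 1 was a repeat. Of the other 7080 rows, 1576 had a description. Names are short forms of the descriptions, which denote a protein match and not a verified skate gene. How rows were chosen for the table is not stated, and TPM keep no depth, so no counting interval could be given. Pectoral replicate 1 had 5 rows at 0, and the other libraries had 1051 to 3552. Genes not detected in pectoral replicate 1 may therefore be missing from the table. Values listed at 0 need not mean absence, and rows with a 0 are given by library, without a mean.

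Rows at 1 TPM or more in 3 libraries or more (3752) were compared with limma 3.58.1 in R 4.3.3 on log2(TPM + 1), with a variance trend, two-sided, adjusted over all tested rows, with a threshold of 0.05. A pseudocount of 1 understates the change of low rows. Members and lists were chosen with earlier results of these data known. From the lists, 28 rows that matched a word were left out after the descriptions were read, most because they describe another protein and some, such as the creatine kinases of brain and mitochondria, SOX4a, SOX19a and ELAV like 1, because they were held not to mark the cell type. The result of 1 related list is not reported here. The naming rule took the 20 tested members of highest mean TPM, any called member, tested members with separated groups and a mean of 5 TPM or more in the higher group, and the 3 highest of each role group (29 rows in all). The other members were named after their values were seen. The fit was checked on simulated data with equal spread in every library, no values held at 0 and changes larger than any member fold change. That check does not cover uneven libraries, rows with many values at 0 or smaller changes. A RefSeq gene table was not used, and no coordinates or sequences are given.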

Additional observations from a re-analysis of the deposited data

How the results depend on the processing

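The count of members called was 0 under every alternative, which were other pseudocounts, filters, scalings and variance models, array weights, a replicate block and fits that left out 1 library, or pectoral replicate 1 together with tail replicate 4. The smallest member adjusted p in any of these was 0.209, for tropomyosin 4a without tail replicate 4. At an unadjusted limma p under 0.05 there were 0 members with the main settings, but 1 to 3 in some alternatives. There were 3 without tail replicate 4 and 2 with array weights. All such fold changes were negative, and the smallest limma p was 0.00253, for tropomyosin 4a without tail replicate 4. The share of all rows under 0.05 is not given for these settings. Of all rows, 3 were called with the main settings. The count was 1 with a pseudocount of 0.1, with median-ratio scaling, with no variance trend and with the replicate block, 26 with array weights, 0 when pectoral replicate 1 was left out together with tail replicate 4, and 1 to 3 without 1 library. The cause was not tested. The member median log2 fold change of 0.21 ran from -0.29 with the replicate block to 0.56 without tail replicate 1. It was also negative with array weights (-0.17), without tail replicate 4 (-0.24) and when pectoral replicate 1 was left out as well (-0.26). The replicate block takes its difference from replicates 1 and 2 alone, since pectoral replicate 3 and tail replicate 4 share no number with the other group. Each of these medians lay less than 0.71 from 0.21. That value is the SD, between libraries of a group, of the median log2 level of the tested members. It is a spread of levels and not of fold changes, and the sign still turned in these settings. Median-ratio scaling moved the median of all rows by 0.26, to 0.08, and the member median to 0.48. Replicate numbers 1 and 2 occur in both groups, but deviations of same-numbered libraries correlated at r of -0.033 and -0.003, so the numbers were not used as pairs. Unknown depth and many values at 0 limit what the low rows can show.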

Other observations

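For 3 members the table held a further contig of the same Trinity gene with no description. The second contig of stathmin 1b stood at 8.94, 9.49 and 8.39 TPM in pectoral motor neurons and at 21.3, 5.72 and 6.51 TPM in tail cord cells. Its pectoral values were close together, and its highest library was tail replicate 1, as for the described stathmin 1b row. The further contig of hook1 stood at 2.13, 0 and 0 TPM in pectoral motor neurons and 2.21, 0 and 0 TPM in tail cord cells, and that of smarcad1a stayed under 2 TPM in every library. Summed over the 5 tropomyosin and myosin rows, levels were 6.21, 4.43 and 0.134 TPM in pectoral motor neurons and 56.9, 10.03 and 14.8 TPM in tail cord cells, without overlap, although none of the 5 rows was separated by itself. This sum was looked at after the values were known and has no test. It was the only class whose sum separated, and 11.8% of all tested rows separated singly, a share partly set by the filter. These classes are finer than the role groups of the naming rule, where both transgelin rows join the tropomyosin and myosin rows. With the transgelin rows included, the sums of the groups overlapped. The tail sums of the 5 tropomyosin and myosin rows also rested on different rows. These were tropomyosin 4a at 46.8 TPM in replicate 1 and the first tropomyosin 3 row at 12.8 TPM in replicate 4. The 4 kinesin rows summed to 8.58, 1.62 and 0.957 TPM in pectoral motor neurons and 3.64, 0.814 and 0.548 TPM in tail cord cells, and the 3 septin rows to 5.76, 7.35 and 0.373 TPM against 15.2, 3.17 and 0 TPM, both with overlap.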
